A study of Homo sapiens with 4 samples.

Results

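NF-kB is a family of transcription factors whose genes encode 5 subunits, and a set of inhibitor proteins holds it in check. The genes described here were those 5 subunits, NFKB1, NFKB2, REL, RELA and RELB, and 5 genes grouped as inhibitors. The latter were NFKBIA, NFKBIB, NFKBIE, NFKBIZ and TNFAIP3. NFKBIZ is in that group by family only, since its product also helps activate some genes, as described below. Members were found by exact gene symbol in the platform annotation, which gave 22 of the 54675 probe sets on the array (a probe set is a group of short probes for one transcript). All 10 genes had at least 1 probe set bright enough to be tested, and 19 of the 22 probe sets were.

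RNA was measured in U937, an established human line from a lymphoma of monocytic character. The treated cells had received shikonin, a naphthoquinone pigment of gromwell roots, at 100 nM for 3 h (2 arrays). Control cells had received the solvent dimethyl sulfoxide, DMSO (2 arrays). Every array holds RNA of this 1 cell line, and the labels do not say whether replicates came from separate cultures. P-values therefore measure the spread between these arrays, which may be technical, and a time is given for the shikonin cells only.

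In resting cells, NF-kB dimers are kept in the cytoplasm by IkB proteins. Signals from receptors such as those for TNF or bacterial products activate the IKK kinase complex, which marks IkB for destruction and frees the dimers to enter the nucleus. In monocytes this switches on cytokines and chemokines, and also NFKBIA and TNFAIP3, whose products shut the signal off again. The array measures RNA only, so it says nothing of where the proteins are or how active they were. A change of RNA in the whole culture does not tell fewer expressing cells from less RNA in each cell.

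Because several of these genes are known to be driven by NF-kB itself, their start regions are shown first. RefSeq windows from 250 bases before to 50 after the gene start (GRCh38.p14) were found for 8 of the 10 genes, in 14 windows because some genes have several starts, and RELB and NFKBIE were not matched. The consensus kB motif, the 10-base sequence that NF-kB dimers bind, was searched on both strands. It was present in 9 of the 14 windows (64.3%), against 11.3% of all 35116 windows of the same length. A match is only a match of letters and does not show that NF-kB bound there. Of the 8 genes, 7 had a match in some window and RELA had none. The stretches below are written 5′ to 3′ on the strand of the gene, with the letters of matches in capitals. Starts and ends include 7 flanking bases. Of 12 stretches found, the first along the chromosome is shown for each of the 7 genes.
NFKBIA, chr14:35404814-35404837, minus strand: ctggcttGGAAATTCCCcgagcct
TNFAIP3, chr6:137867185-137867220, plus strand: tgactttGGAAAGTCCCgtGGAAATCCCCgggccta
NFKB1, chr4:102501303-102501326, plus strand: cgtcagtGGGAATTTCCagccagg
NFKB2, chr10:102394464-102394488, plus strand: acgtcatGGGAATTCCCCcctccgg
REL, chr2:60881520-60881544, plus strand: cagccgcGGGAAATTCCCctcccgc
NFKBIB, chr19:38899934-38899958, plus strand: cgtggtgGGGAATTTCCCgcagggc
NFKBIZ, chr3:101827760-101827783, plus strand: ttggtctGGGAATTTCCagtgtgc
The match of NFKBIA begins 81 bases before its start. TNFAIP3 has a pair of matches that begin 67 and 55 bases before its start. The matches shown for NFKB1, REL and NFKBIB begin 49, 47 and 28 bases before theirs, and those of NFKB2 and NFKBIZ 107 and 223 bases before. In the stretches shown for NFKB2, REL and NFKBIB, matches overlap by 9 letters or are palindromes, so they count as 1 place.

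The complete window is printed for the 2 genes that passed the test described next, with matches in capitals. The first is chr14:35404700-35404999 on the minus strand and the second chr6:137867009-137867308 on the plus strand.
NFKBIA: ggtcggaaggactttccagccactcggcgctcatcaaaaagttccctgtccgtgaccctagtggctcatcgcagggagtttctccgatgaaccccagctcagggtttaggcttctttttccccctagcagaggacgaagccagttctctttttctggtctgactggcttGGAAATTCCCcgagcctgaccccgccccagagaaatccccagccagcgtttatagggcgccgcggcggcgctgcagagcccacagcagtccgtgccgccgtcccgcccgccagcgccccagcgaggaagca
TNFAIP3: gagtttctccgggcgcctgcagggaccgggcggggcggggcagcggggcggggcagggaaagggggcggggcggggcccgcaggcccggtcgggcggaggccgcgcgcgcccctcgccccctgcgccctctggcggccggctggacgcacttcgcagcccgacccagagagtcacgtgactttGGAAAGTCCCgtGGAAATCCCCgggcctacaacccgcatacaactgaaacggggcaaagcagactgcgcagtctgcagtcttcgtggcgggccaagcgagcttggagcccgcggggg

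Of these genes, 2 passed the test for a difference after shikonin. NFKBIA, the gene of IkB-alpha, was 1.39-fold lower, and TNFAIP3, which encodes the deubiquitinating enzyme A20, was 1.33-fold higher but only just past the threshold. The other 8 genes, among them all 5 subunits, did not pass. Each gene was judged by its brightest probe set, with limma's moderated test over 32746 probe sets and a Benjamini-Hochberg adjusted p under 0.05 as the threshold. By the same rule 5.00% of all 13550 genes tested were called higher and 6.68% lower, so 1 call in each direction among 10 genes lies close to that background. At an unadjusted p under 0.05, limma had 13.3% of all genes higher and 14.7% lower, and 2 of the 10 genes in each direction. Counted by probe set, 1 of 19 was called in each direction, against 3.93% higher and 5.27% lower of all tested. The median log2 change of the 10 genes was 0.02, against 0.00 over all genes. Signals of different probe sets depend on their probes, so levels were not compared between genes.

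**Figure D1:**
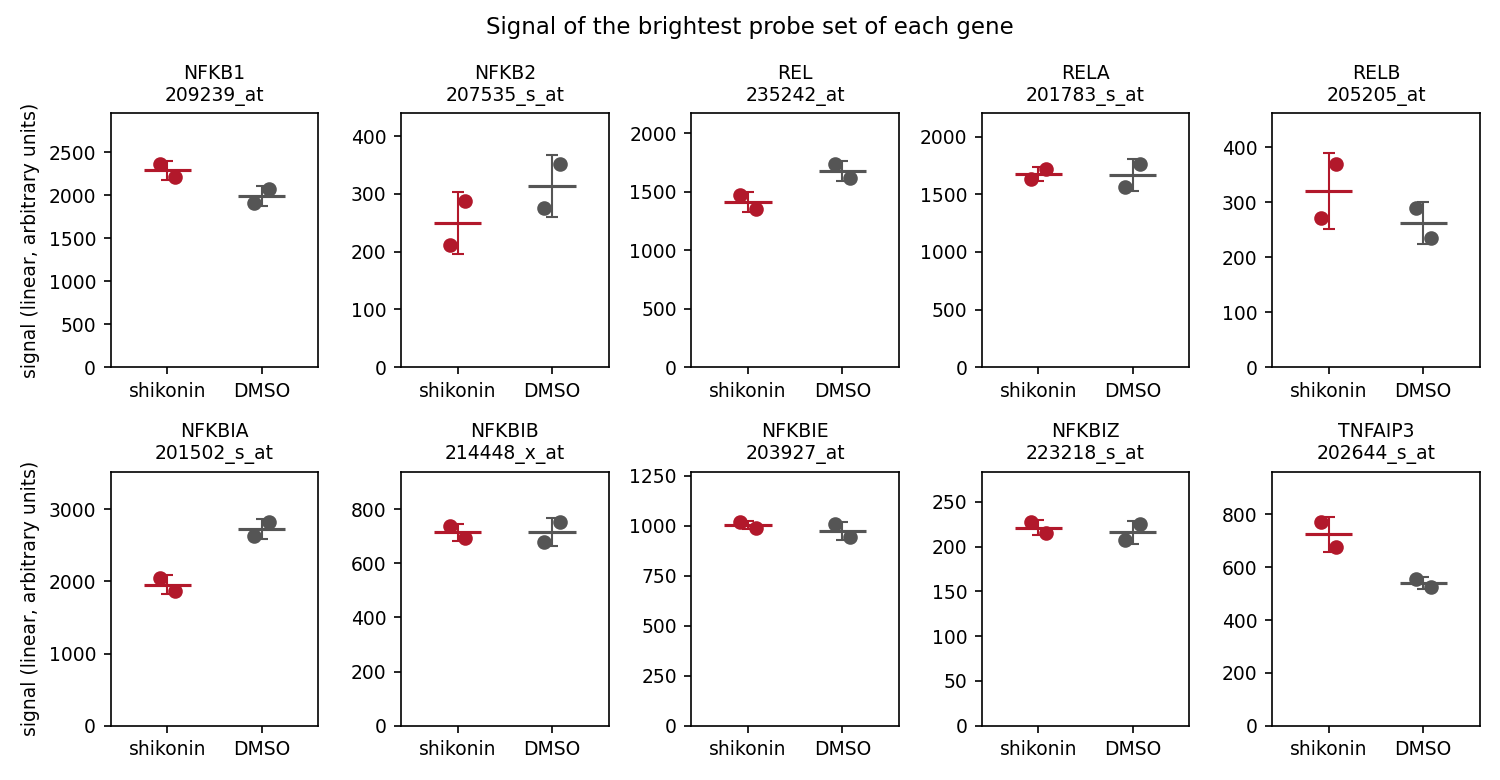
Signal of the brightest probe set of each of the 10 genes on the vertical axis (linear scale, arbitrary units, each axis from 0), with the 2 shikonin arrays left of the 2 DMSO arrays. Points are arrays, horizontal lines means and vertical bars SD. NFKBIA is lower and TNFAIP3 higher on both shikonin arrays than on either DMSO array. NFKB1 is likewise separated upward and REL downward, and neither passed the test.

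Array-wide checks gave no array that stood apart. Median signals were 61.0 and 63.7 after shikonin and 60.5 and 62.2 in DMSO. The arrays carry a common scaling, so close medians say little. Log2 values correlated at 0.979 within each group and at 0.970 to 0.972 between groups. Of 15 monocytic lineage markers with a probe set, 14 were above the 40th percentile on all arrays. Their summed signal, in which bright probe sets weigh most, was 94665 and 101217 after shikonin, against 97041 and 103866 in DMSO. Of these, PTPRC (CD45) was called lower (log2 change -0.35). Of 5 T cell markers 1 was above that percentile, of 4 B cell markers 2, of 2 erythroid markers 1, and of 6 epithelial and fibroblast markers 2. None of those other markers was called, and the part of cell composition in the results was not tested.

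RELA encodes p65, the main activating subunit of the classical pathway. Its brightest probe set (201783_s_at) had signals of 1632 and 1716 after shikonin, against 1566 and 1764 in DMSO. The groups overlapped, and the log2 change was 0.01 (SE 0.084, 95% confidence interval -0.18 to 0.20, limma adjusted p = 0.963). The interval leaves room for changes of up to about that size in either direction. A second, dimmer probe set (209878_s_at) read 435 and 424 after shikonin and 402 and 379 in DMSO, a log2 change of 0.13 that did not pass (limma adjusted p = 0.559).

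NFKB1 encodes p105, which is trimmed to the DNA-binding subunit p50, the usual partner of p65. Its signals were 2366 and 2211 after shikonin, against 1906 and 2075 in DMSO. Both shikonin arrays lay above both DMSO arrays. The log2 change of 0.20 (SE 0.077, interval 0.03 to 0.37) had an unadjusted p of 0.0277 in limma and did not pass after adjustment (0.144). A separation of the arrays in this direction was found in 28.2% of all genes tested, and a separation downward in 27.3%. Among the 10 brightest probe sets, 2 were separated upward, 2 downward and 6 overlapped.

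REL encodes c-Rel, a subunit prominent in blood cells. Signals of its brightest probe set (235242_at) were 1470 and 1353 after shikonin, against 1739 and 1614 in DMSO. Both shikonin arrays were below both DMSO arrays, with a log2 change of -0.25 (SE 0.083, interval -0.43 to -0.06, limma adjusted p = 0.101). The next probe set (228812_at) was also separated, at 852 and 730 after shikonin and 927 and 891 in DMSO, with a log2 change of -0.20 (limma adjusted p = 0.278). The other 2 tested probe sets of REL overlapped between groups, at log2 changes of -0.03 (206036_s_at) and -0.06 (239486_at). No probe set of REL passed the test, and the 4 did not give one size of change.

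NFKB2 encodes p100, which acts as an inhibitor until it is trimmed to the subunit p52 in the alternative pathway. Its brightest probe set (207535_s_at) read 212 and 287 after shikonin and 276 and 352 in DMSO. The arrays overlapped, and the log2 change of -0.32 (SE 0.193, interval -0.76 to 0.11) did not pass (limma adjusted p = 0.349). It was -0.12 without shikonin 1, -0.15 without DMSO 2, -0.50 without DMSO 1 and -0.53 without shikonin 2. A dimmer probe set (209636_at) read 65.9 and 60.3 after shikonin, against 114 and 133 in DMSO. These groups were apart, and the log2 change of -0.87 (SE 0.287, interval -1.51 to -0.22) was the largest of all 19 probe sets in size, yet it did not pass (limma adjusted p = 0.0977).

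RELB encodes the partner of p52 in the alternative pathway. Its only probe set (205205_at) read 272 and 370 after shikonin, against 290 and 235 in DMSO. The shikonin arrays differed from each other by more than the group means did. The log2 change was 0.27 (SE 0.188, interval -0.15 to 0.69, limma adjusted p = 0.430). It was 0.05 without shikonin 2, 0.13 without DMSO 2, 0.41 without DMSO 1 and 0.49 without shikonin 1, and did not pass in any of these.

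**Figure D2:**
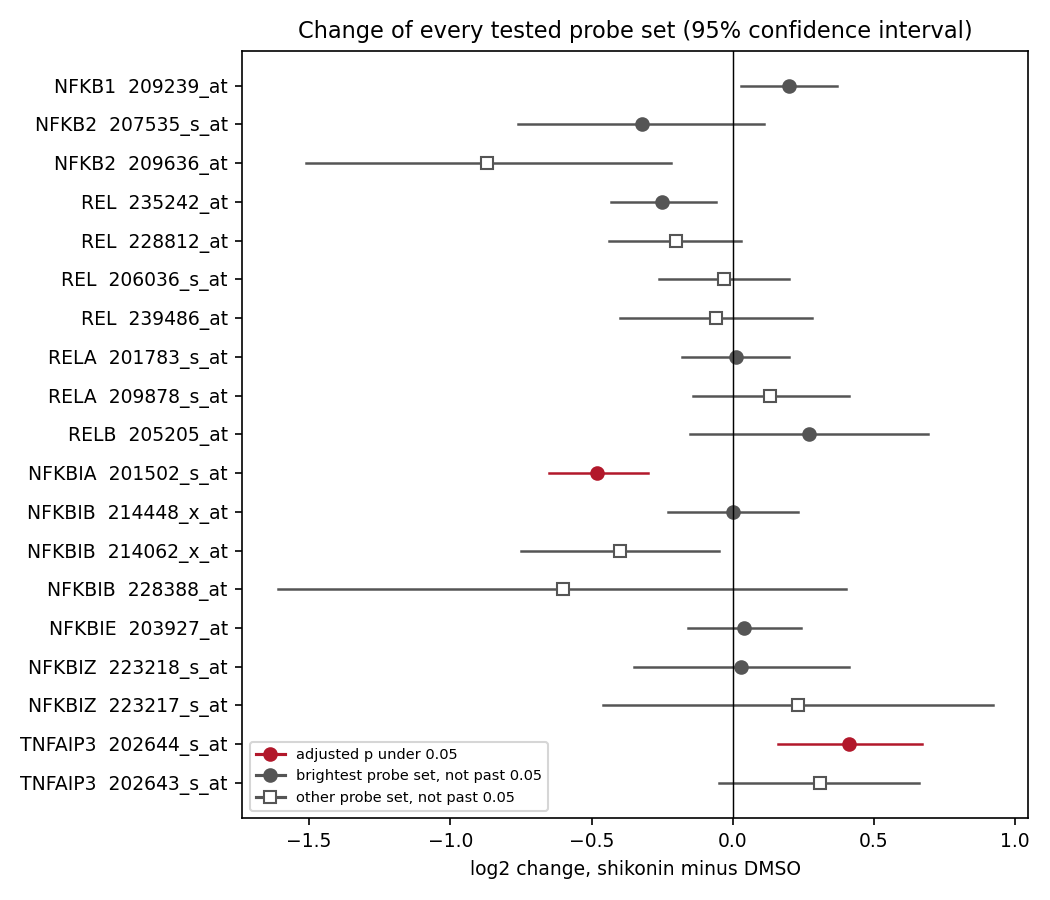
Log2 change, shikonin minus DMSO, of the 19 tested probe sets (horizontal axis), with 95% confidence intervals from limma. Only NFKBIA (-0.48) and TNFAIP3 (0.41), in red, passed the adjusted threshold. Open squares are probe sets other than the brightest of a gene.

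NFKBIA encodes IkB-alpha, the inhibitor that is destroyed within minutes of IKK activation and then remade under NF-kB control. Its signals were 2044 and 1862 after shikonin, against 2625 and 2818 in DMSO (means 1953 ± 129 and 2722 ± 137, SD, n = 2 each). Both shikonin arrays lay well below both DMSO arrays. The log2 change was -0.48 (SE 0.077, interval -0.65 to -0.30, limma adjusted p = 0.00595). In size, 17.0% of all genes tested had a larger change. The call held when any 1 array was left out, with log2 changes of -0.41 to -0.54. It was lost with a single variance prior for all probe sets (limma adjusted p = 0.191), a setting in which limma called no gene at all. This gene rests on 1 probe set, 201502_s_at, whose suffix marks probes shared by more than 1 transcript.

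TNFAIP3 encodes A20, an enzyme that edits ubiquitin chains on signalling proteins upstream of IKK and so ends the signal. Its brighter probe set (202644_s_at) read 770 and 678 after shikonin, against 555 and 525 in DMSO (means 724 ± 64.9 and 540 ± 21.1, SD, n = 2 each). Both shikonin arrays were above both DMSO arrays. The log2 change was 0.41 (SE 0.111, interval 0.16 to 0.67), with a limma adjusted p of 0.0498. The second probe set (202643_s_at) read 306 and 365 after shikonin and 287 and 251 in DMSO, and its log2 change of 0.31 did not pass (limma adjusted p = 0.276). Both probe sets were thus separated upward, but the call of the first was lost whenever 1 array was left out (limma adjusted p 0.0901 without DMSO 1, 0.154 without DMSO 2, 0.224 without shikonin 1 and 0.0570 without shikonin 2). With a pseudocount of 1 it also missed the threshold (0.0511).

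**Figure D3:**
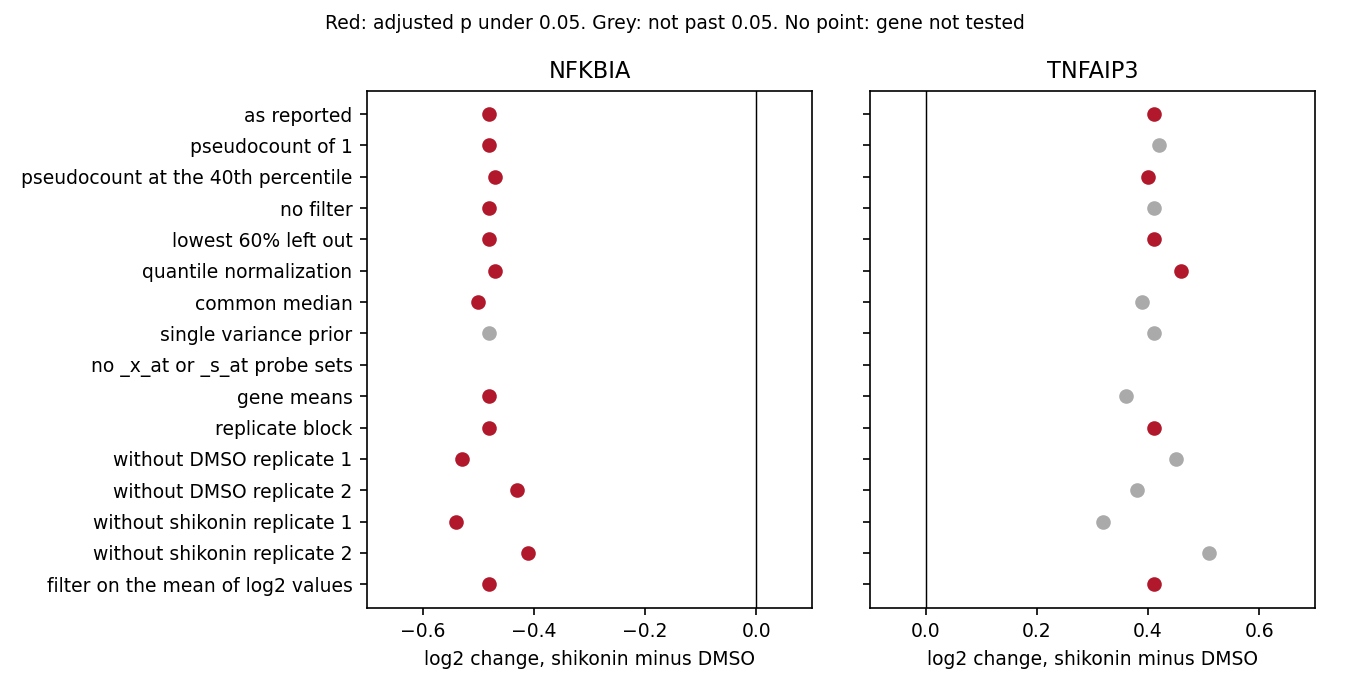
Log2 change, shikonin minus DMSO, of NFKBIA (left) and TNFAIP3 (right) as reported and under 15 other settings, red where the adjusted p was under 0.05 and grey where it was not. NFKBIA stays between -0.54 and -0.41 and TNFAIP3 between 0.32 and 0.51. Neither has a point in the setting that keeps only specific probe sets, where neither gene was tested.

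The remaining genes of the inhibitor group did not pass. NFKBIB encodes IkB-beta, a slower relative of IkB-alpha. Its brightest probe set (214448_x_at) read 736 and 692 after shikonin, against 678 and 751 in DMSO, with a log2 change of 0.00 (SE 0.104, interval -0.23 to 0.23). A second one (214062_x_at) read 430 and 600 after shikonin and 642 and 709 in DMSO, with a log2 change of -0.40 (limma adjusted p = 0.147). The third (228388_at), dimmer and at -0.60, overlapped between groups and had an interval of -1.61 to 0.40. The probe sets of NFKBIB thus disagree, and the 2 brighter ones carry the suffix for probes that can match other sequences. Without shikonin 2, the second one had a log2 change of -0.64 and passed (limma adjusted p = 0.0243).

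NFKBIE encodes IkB-epsilon. Signals were 1016 and 988 after shikonin, against 1006 and 943 in DMSO, so the arrays overlapped. The log2 change was 0.04 (SE 0.088, interval -0.16 to 0.24). NFKBIZ encodes IkB-zeta, a nuclear member of the family that helps p50 activate a subset of inflammatory genes. Its brighter probe set (223218_s_at) read 227 and 215 after shikonin, against 207 and 225 in DMSO, with a log2 change of 0.03 (SE 0.168, interval -0.35 to 0.41). The dimmer one (223217_s_at) changed by 0.23 and had an interval of -0.46 to 0.92, wide enough to hide a sizeable change in either direction.

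Of the 22 probe sets, 3 were left out of the test for their low mean signal. The one of NFKBIA (231699_at) read 7.14 and 35.9 after shikonin and 32.4 and 11.5 in DMSO, below the 40th percentile on all 4 arrays. That of NFKB2 (211524_at), also below it on all 4, read 8.68 and 17.8 after shikonin and 18.8 and 35.5 in DMSO. That of REL (206035_at) read 12.8 and 29.8 after shikonin, below the percentile on both arrays, against 48.6 and 41.1 in DMSO. Signals this close to the bottom of the array carry little information on level.

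The 4 arrays were next searched for the genes most like the 2 called members in pattern, by the Euclidean distance between log2 values centred on each gene's mean. Nearest to NFKBIA were PMAIP1, a BH3-only promoter of apoptosis (distance 0.016, log2 change -0.47), MOAP1, a modulator of apoptosis (0.022, -0.47), and TRIP10 (0.026, -0.45). PMAIP1 read 1798 and 1621 after shikonin and 2286 and 2442 in DMSO. Nearest to TNFAIP3 were PRADC1 (distance 0.023, log2 change 0.43), ATRN (0.029, 0.41) and TRNT1, which adds the CCA end of transfer RNAs (0.033, 0.42). With 4 arrays many genes share such a pattern, and TRIP10 and ATRN themselves did not pass the test (limma adjusted p = 0.0887 and 0.0523).

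Genes around the core were then read in lists chosen from textbook knowledge. The background is the same for each list: 5.00% of all genes called higher and 6.68% lower, or 13.3% and 14.7% at an unadjusted p under 0.05. Of 18 tested genes in the list of other inhibitors and feedback regulators, 4 fell and 1 rose (22.2% and 5.56%). The median log2 change was -0.15. This list, named the other inhibitors below, was not sorted by whether its genes restrain or promote NF-kB. Its counts are therefore not counts of inhibitors alone. NFKBID, a further nuclear IkB protein, read 399 and 477 after shikonin, against 714 and 798 in DMSO, a log2 change of -0.78 (SE 0.125, limma adjusted p = 0.00599). Its other tested probe set changed by -0.56 without passing. RBCK1, a subunit of the complex that builds linear ubiquitin chains, fell by 0.45 on the log2 scale (limma adjusted p = 0.00332), while its 2 other probe sets changed by 0.26 and 0.27 without passing. The log2 change of CYLD, a deubiquitinase that opposes IKK activation, was -0.60 on the brightest probe set (limma adjusted p = 0.0313). Its 4 other tested probe sets ran from -0.42 to 0.06 without passing, and the call was lost without any 1 of the 4 arrays. TAX1BP1, an adaptor through which A20 works, fell by 0.29, and its call was lost without DMSO 2 (limma adjusted p = 0.0501) or shikonin 1 (0.0531). The gene that rose, COMMD1, which promotes the breakdown of RELA, was picked out after its values were seen; its log2 change was 0.29 (limma adjusted p = 0.0433). In this list 0 genes were called higher without DMSO 1, shikonin 1 or shikonin 2, and 2 were called lower without DMSO 2 or shikonin 1.

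Of 26 tested kinases and adaptors of the IKK pathway, 2 fell (7.69%) and 1 rose (3.85%), shares near those over all genes, and the median was 0.01. TAB2, an adaptor of the kinase TAK1, fell by 0.40 on the log2 scale (limma adjusted p = 0.0205), and its call was lost without DMSO 2 (0.0814) or shikonin 1 (0.101). IRAK2, a kinase of Toll-like receptor signalling, read 496 and 466 after shikonin, against 752 and 624 in DMSO (log2 change -0.50, limma adjusted p = 0.0357). TBK1, an IKK-related kinase, read 1385 and 1335 after shikonin, against 1054 and 1083 in DMSO (log2 change 0.35, limma adjusted p = 0.0306). The call of IRAK2 was lost without DMSO 1 (0.177), shikonin 1 (0.0660) or shikonin 2 (0.110), and that of TBK1 without any 1 array. The 3 core components of IKK, picked out after the values were seen, did not pass: CHUK changed by 0.17, IKBKB by 0.01 and IKBKG by 0.08 on the log2 scale.

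None of 12 tested receptors passed in limma, and the median log2 change was -0.16. At an unadjusted p under 0.05, 0 were higher and 2 lower, a smaller share in all than over all genes. They were IL1RAP, a co-receptor for interleukin-1 (-0.40, limma adjusted p = 0.0611), and TLR4, the receptor for bacterial lipopolysaccharide (-0.35, limma adjusted p = 0.0707). Both shikonin arrays lay below both DMSO arrays in each. Among 9 tested genes for ubiquitination of IkB and of the p100 and p105 precursors, 1 rose and none fell, with a median of 0.09 (2 higher and 1 lower at an unadjusted limma p under 0.05), which for so few genes is near the background. That gene was SKP1, a subunit of the ligase that recognises IkB, at a log2 change of 0.19 (limma adjusted p = 0.0374). The call of SKP1 was lost without any 1 array.

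Of 30 NF-kB target genes tested, 8 fell (26.7%) and none rose, at a median of -0.11. At an unadjusted limma p under 0.05, 12 were lower and 1 higher. The share called lower was above that over all genes, as it was for the other inhibitors. TNF, the inflammatory cytokine that both activates and is activated by NF-kB, read 197 and 186 after shikonin, against 601 and 640 in DMSO (3.13-fold lower). JUNB, an AP-1 factor, read 699 and 617 after shikonin and 1402 and 1431 in DMSO (log2 change -1.10, limma adjusted p = 2.60e-04). CCL2, a chemokine for monocytes, read 2560 and 2756 after shikonin, against 4817 and 5734 in DMSO (1.97-fold lower). IER3, an early response gene, read 180 and 235 after shikonin, against 527 and 607 in DMSO (2.67-fold lower). TNF, CCL2 and IER3 each rest on 1 tested probe set, whose suffix marks probes shared by more than 1 transcript. The groups were far apart for all 4 genes. These 4 were named as the called targets with the smallest p, so the smaller fall of NFKBIA beside them says little. Its log2 change of -0.48 lay below the list median of -0.11. No difference between NFKBIA and the targets was tested. These targets also answer to other factors, and the other 22 did not pass on their brightest probe set. Of those, 4 genes picked out after the values were seen had dimmer probe sets called lower. They were PLAU (1 of 1), GADD45B (2 of 3), CD44 (4 of 9) and CCL5 (1 of 2). The list was chosen with earlier results known, so its direction is no independent evidence. In the promoter windows of these targets, the kB motif was present in 16 of 47 (34.0%), against 11.3% of all windows. It was also in 9 of 33 windows of the other inhibitors (27.3%) and 9 of 40 of the kinases and adaptors (22.5%). The ubiquitination genes had it in 3 of 21 (14.3%) and the receptors in 0 of 18.

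**Figure D4:**
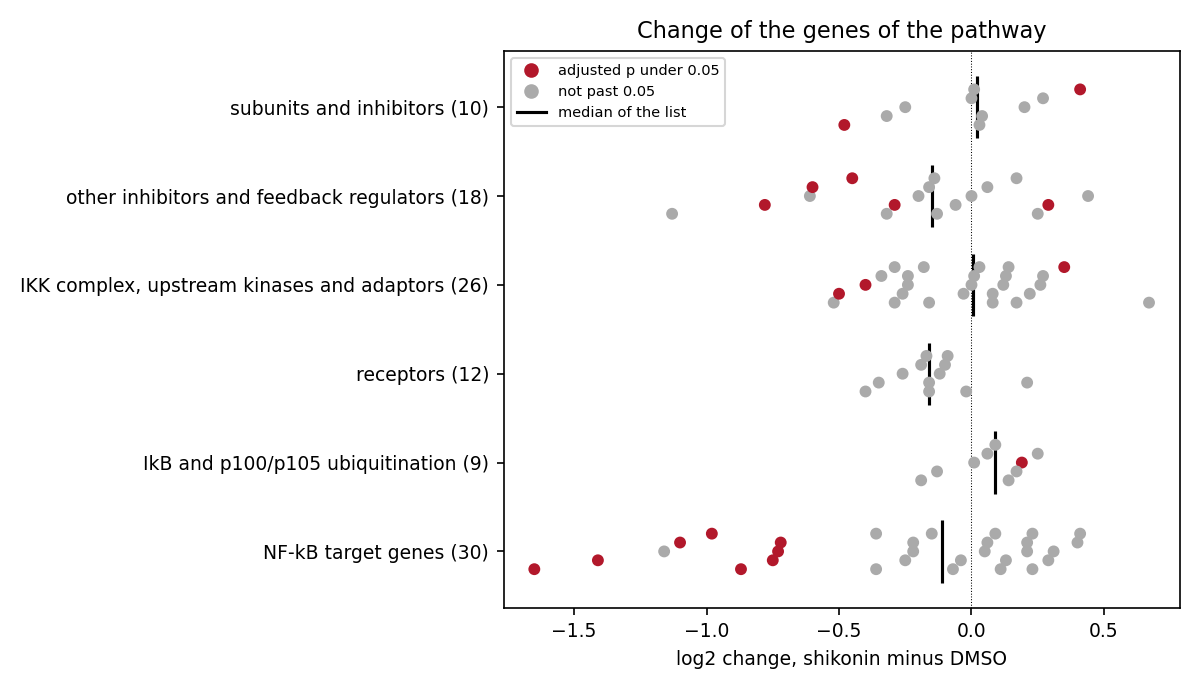
Log2 change, shikonin minus DMSO, of each tested gene (points, brightest probe set) in the core set and the 5 pathway lists, with the number tested in brackets and the median as a bar. Red points passed the adjusted threshold. The 8 red target genes all lie on the lower side, while the core set has 1 red point on each side.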

How the data were processed

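Total RNA of U937 cells was amplified from the 3' end, labelled with biotin and hybridized to Affymetrix arrays, per the labels' protocols. The deposited intensity of a probe set is linear. Its mean, without the lowest and highest 2%, was 499.9 on every array, so the authors' values carry a common scaling and changes are relative to the rest of the array. The summarising software is not given in these sources.

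Values were taken as log2(signal + 9.94), the pseudocount being the 20th percentile over all arrays, and folds of dim genes are therefore understated. Probe sets in the lowest 40% by mean signal, and controls, were removed, leaving 32746. Tests were two-sided, with limma 3.58.1 in R 4.3.3 (eBayes with a variance trend, 2 residual and 7.1 prior degrees of freedom) and Benjamini-Hochberg adjustment over what was left. Only probe sets with 1 gene symbol (41097) named a gene. The fit was also run on simulated arrays drawn from its own means and variances, which cannot check the variance model itself. The number of arrays limits the precision.

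The members, lists and alternatives were chosen with earlier results of these data known. Named genes are the 10 members, in each pathway list the 4 called genes with the smallest p (2 where none was called), and the 3 genes nearest in pattern to the called member with the largest change in each direction. Alternatives changed the pseudocount, filter, normalization, variance model, probe sets, pairing and arrays.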

Additional observations from a re-analysis of the deposited data

How the results depend on the processing

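NFKBIA was the call that held best among the 10 genes: its log2 change lay between -0.54 and -0.41 in the 14 alternatives that could test it, and only the single variance prior ended the call (adjusted p 0.191). TNFAIP3 stayed at 0.32 to 0.51 and missed the threshold in 9 of 14, with adjusted p from 0.0208 to 0.226. The filter on the mean of log2 values was added after seeing the data and moved no count by more than 1.5 times. Among the 10 genes, 0 were called higher with a pseudocount of 1, no filter, a common median, the single variance prior, gene means or specific probe sets only (none ending in _x_at or _s_at), and 0 lower with that prior or those probe sets, which left NFKBIA and TNFAIP3 untested. With the single variance prior limma called 0 genes of any kind, although 2406 had an unadjusted p under 0.05 (NFKBIA and TNFAIP3 among the members), so every list had 0 calls there. Without a filter 350 genes in all were called higher, against 678 as reported. Counts of other inhibitors called higher were 0 with no filter or a common median, and of those called lower 1 with specific probe sets and 2 with gene means. Kinases and adaptors called higher numbered 0 with a common median, and 1 was called lower with no filter, quantile normalization, specific probe sets or gene means. Of the receptors 1 was called lower with the lowest 60% left out or with gene means. SKP1 was called in none of no filter, quantile normalization, specific probe sets and gene means, so 0 ubiquitination genes were called higher. Of the target genes 3 were called lower with specific probe sets. TNF, CCL2 and IER3 were not tested there, as their only tested probe sets end in _s_at. With the lowest 60% left out, 9 target genes were called lower and 1 higher.

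Leaving out 1 array at a time gave 0 of the 10 genes called higher and 1 called lower in each case. It gave 0 to 1 other inhibitors called higher and 2 to 4 called lower, 0 kinases and adaptors called higher and 0 to 1 called lower, 0 ubiquitination genes called higher, and 8 to 9 target genes called lower. With 1 array in a group, that array is assumed to vary like the others.

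Some changes near 0 turned sign without passing in any setting. NFKBIB was 0.00 as reported, and -0.07 and 0.07 without DMSO 1 and DMSO 2. It was -0.34 with gene means and -0.60 with specific probe sets. RELA turned to -0.01 with a common median and to -0.08 and -0.03 without DMSO 1 and shikonin 2 (-0.08 to 0.09 over the 4 arrays left out in turn). NFKBIE turned to -0.01 without DMSO 2 (-0.01 to 0.09), and NFKBIZ to -0.03 and -0.01 without DMSO 1 and shikonin 1 (-0.03 to 0.09). The REL probe set 206036_s_at turned to 0.02 with quantile normalization and to 0.05 and 0.03 without DMSO 1 and shikonin 2 (-0.10 to 0.05), and 239486_at to 0.03 without shikonin 2 (-0.15 to 0.03). Genes called as reported turned sign too. CYLD, at -0.60 as reported, lay at 0.06 with specific probe sets, since another probe set then stood for it. RBCK1, at -0.45 as reported, lay at 0.03 with gene means, which average its 3 probe sets. With specific probe sets another probe set also stood for SKP1, NFKBID and TAX1BP1, at 0.02, -0.56 and -0.14. TAB2 was not tested in that setting, nor were TNF, CCL2 and IER3. For the remaining losses of a call the cause was not tested.

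The titles number the samples 1 and 2 in each group without saying that a number marks a shared culture, and deviations of same-numbered samples correlated at 0.0178, so the numbers were not taken as pairs. With the number as a replicate block, 2 of the 10 genes were called lower, REL (-0.25, limma adjusted p 0.0458) joining NFKBIA, and 1 higher, and the second NFKBIB probe set (214062_x_at, -0.40) passed too (limma adjusted p 0.0362). In that fit 2 other inhibitors and 2 kinases and adaptors were called higher, and 2 receptors lower. Of the target genes 10 were called lower, against 8 as reported, and 1 higher. Calls over all genes grew to 1249 higher and 1341 lower, against 678 and 905.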
